A study of Homo sapiens with 8 samples.

Results

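Nuclear copies of mitochondrial genes are stretches of mitochondrial DNA that were inserted into the chromosomes and are annotated there as pseudogenes of the genes they resemble. The copies described here were chosen by name: every locus off the mitochondrial chromosome whose GENCODE symbol starts with MTND, MTCO, MTATP, MTCYB or MTRNR2, whose gene type is a pseudogene, and whose normalized count was 10 or more in 3 or more short-read libraries. Of 404 such annotated genes, 393 were matched to a locus of the short-read table, 111 of these were above 0 in at least 1 library, and 28 passed the minimum, out of 62727 genes in the table. No MTRNR2 copy was among the 28. The minimum is a filter on level, so a copy with few counts in nucleoplasm could pass only through chromatin, and this was the case for 16 of the 28, which had fewer than 10 normalized counts in every nucleoplasm library.

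The libraries were made from HAP1, a near-haploid human cell line derived from leukemia cells that carry a BCR::ABL1 fusion. The labels name no treatment or edit. Nuclei from 3 independent cultures were extracted with a urea and detergent buffer, and RNA from the pellet (chromatin) and from the supernatant (nucleoplasm) gave 3 short-read libraries each, with strand information. The 2 long-read libraries were made from chromatin only. ERCC standards, synthetic RNAs of known amount, were added to each fraction, and ribosomal RNA was depleted. Numbers of short reads given below are count units recovered from the normalized values. Depth in these units ran from 38895027 to 43804918 in chromatin and from 75737601 to 79523938 in nucleoplasm. Loci on the mitochondrial chromosome held 0.425% to 0.528% of the counts in chromatin and 1.04% to 1.21% in nucleoplasm. The fraction markers followed the titles of the libraries, with log2 fold changes between 3.09 and 3.11 for the nuclear lncRNAs MALAT1 and PVT1 and between -2.35 and -2.11 for the mRNAs GAPDH and B2M. BCR and ABL1 were present, while PTPRC, SPI1, GATA1 and HBB, markers of blood cell types, were at 0 in all 6 short-read libraries and CD33 averaged 3.04 normalized counts in chromatin and 3.45 in nucleoplasm. Since whole cultures were measured, fewer expressing cells and less RNA per cell cannot be told apart.

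In human cells the mitochondrial genome is transcribed inside the organelle from both strands as long precursors, and tRNAs between the genes are cut out to release the mRNAs and rRNAs. The mRNAs encode subunits of respiratory complex I (the ND genes), complex III (CYB), complex IV (the CO genes) and the ATP synthase (the ATP genes). All but ND6 are encoded on the same strand. A nuclear copy lies outside this system, and its sequence is written in the genetic code of the organelle. It can be transcribed as part of a longer nuclear transcript, for example as a piece of an intron. Where a copy is recent, its sequence is still close to that of the organelle, and a short read may then match both places.

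The 28 copies fell into 2 classes by their identity to the mitochondrial genome of hg38, with no copy between 79.8% and 89.7%. The 11 copies in the upper class were 89.7% to 99.2% identical, and each held at least 1 stretch of 50 bases, the length of a short read, that is found exactly in the mitochondrial genome. The 17 copies in the lower class were 65.7% to 79.8% identical, and none of them shared such a stretch, or one of 30 bases, with the mitochondrial genome. The boundary of 85% used below was set in this gap after the values were seen. The following 100-base stretches show 2 copies of each class, among them the members on either side of the gap. Each was picked as the ungapped stretch whose identity is closest to that of the whole aligned copy. They are read 5′ to 3′ on the strand of the copy in hg38, and capitals mark the bases at which a copy and its parent differ.

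MTCO1P12 (chr1:631094-631193, plus strand) stands for the upper class, with 1 difference from MT-CO1 (chrM:5924-6023):

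MTCO1P12: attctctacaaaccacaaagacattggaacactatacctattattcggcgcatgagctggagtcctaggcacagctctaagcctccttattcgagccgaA

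MT-CO1: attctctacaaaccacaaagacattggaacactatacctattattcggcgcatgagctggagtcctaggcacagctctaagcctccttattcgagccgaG

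MTND4P35 (chr5:100050535-100050634, minus strand) is the least similar of the upper class, with 10 differences from MT-ND4 (chrM:10488-10587):

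MTND4P35: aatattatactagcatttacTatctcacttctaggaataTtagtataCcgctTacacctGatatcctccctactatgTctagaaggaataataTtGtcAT

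MT-ND4: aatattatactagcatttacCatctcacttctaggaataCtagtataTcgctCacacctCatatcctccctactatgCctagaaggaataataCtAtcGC

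MTCO1P31 (chr5:5396792-5396891, minus strand) is the most similar of the lower class, with 20 differences from MT-CO1 (chrM:7031-7130):

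MTCO1P31: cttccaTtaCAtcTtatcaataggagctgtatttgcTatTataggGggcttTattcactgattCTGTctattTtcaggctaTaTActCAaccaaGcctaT

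MT-CO1: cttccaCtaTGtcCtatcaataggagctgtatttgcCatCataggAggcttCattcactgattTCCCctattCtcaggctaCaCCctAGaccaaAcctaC

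MTND1P32 (chrX:102785929-102786028, plus strand) belongs to the largest insertion of the lower class, with 31 differences from MT-ND1 (chrM:3571-3670):

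MTND1P32: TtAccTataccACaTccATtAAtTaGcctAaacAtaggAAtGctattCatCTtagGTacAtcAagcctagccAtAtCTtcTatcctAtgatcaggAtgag

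MT-ND1: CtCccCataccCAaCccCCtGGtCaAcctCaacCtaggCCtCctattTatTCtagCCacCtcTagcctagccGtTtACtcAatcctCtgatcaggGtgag

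The 28 copies occupy 12 places in the nuclear genome when copies less than 50000 bases apart are counted together. The upper class lies in 5 of them: 4 copies on chromosome 1 (629062 to 633438, 98.0% to 99.2% identity), 4 on chromosome 5 (134923303 to 134928326, 92.4% to 95.6%), and the single copies MTCO1P40 on chromosome 17, MTCO2P2 on chromosome 18 and MTND4P35 on chromosome 5. The lower class lies in 7: 9 copies on chromosome X (102785667 to 102807824, 65.7% to 71.1%), 2 on chromosome 13 (95692538 to 95695705), 2 on chromosome 5 (5395378 to 5396968), and the single copies MTND5P42 on chromosome 10, MTCYBP33 on chromosome 16, MTND5P15 on chromosome 3 and MTND5P14 on chromosome 9. Within the places on chromosomes 1 and X the copies stand in the order that their parents have in the mitochondrial genome. Copies of 1 place share a sequence neighbourhood and are not independent of each other.

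Chromatin was compared with nucleoplasm to ask which RNAs stay bound to chromatin when nuclei are extracted. The lower class was higher in chromatin and the upper class was higher in nucleoplasm, like the mitochondrial mRNAs, with 1 copy that did not pass the test. By limma on log2(normalized count + 1), at an adjusted p-value under 0.05, all 17 copies of the lower class were higher in chromatin (44.2% of the 26066 tested genes were) and 10 of the 11 copies of the upper class were higher in nucleoplasm (45.2% of the tested genes were). At a fold change above 4 as well, 16 of the 28 copies were called chromatin-enriched (21.2% of tested genes) and 2 were called in the opposite direction (8.47%). Since most of the lower class could pass the minimum only through chromatin, these counts describe the copies that passed and carry no support for a direction. The same holds for the median log2 fold change of 3.62 over the 28 (-0.019 over all tested genes). That median was 2.54 when the 3 copies at 0 in all nucleoplasm libraries were set to their lower bounds. The limma p-values given below for the 16 copies that passed only through chromatin carry no such support either. The upper class did not depend on the filter in this way, since each of its 11 copies reached 10 normalized counts in all 6 libraries. Counts of the chromatin and the nucleoplasm libraries did not overlap for 27 of the 28 copies, as for 90.6% of all tested genes.

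**Figure D1:**
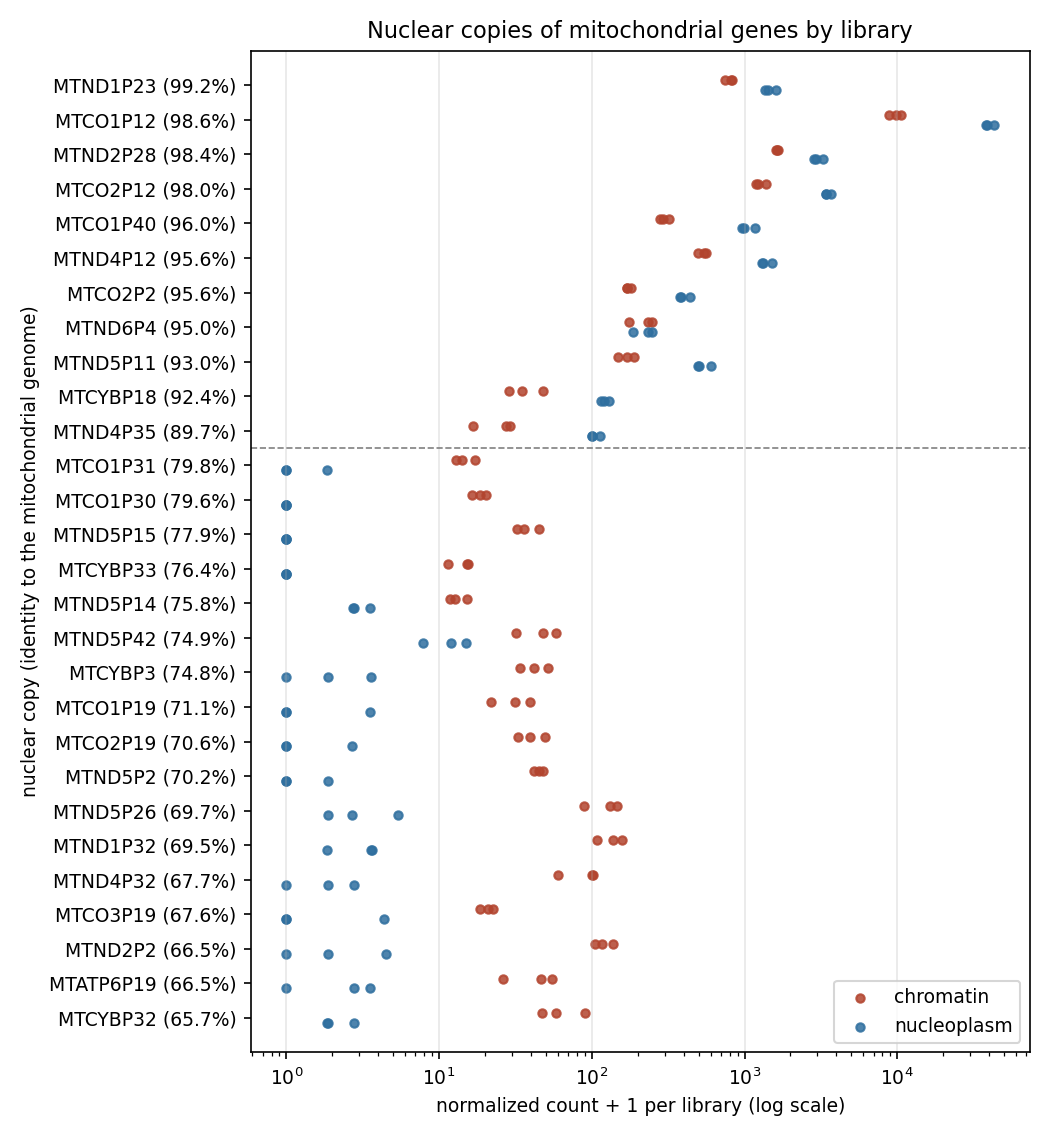
Normalized count + 1 of each of the 28 nuclear copies in the 3 chromatin and 3 nucleoplasm libraries, on a log scale, with copies ordered by identity to the mitochondrial genome. Each point is 1 library, and the dashed line separates the 11 copies of at least 89.7% identity from the 17 of at most 79.8%. Above the line the nucleoplasm points lie to the right for all copies but MTND6P4, and below it the chromatin points lie to the right.

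**Figure D2:**
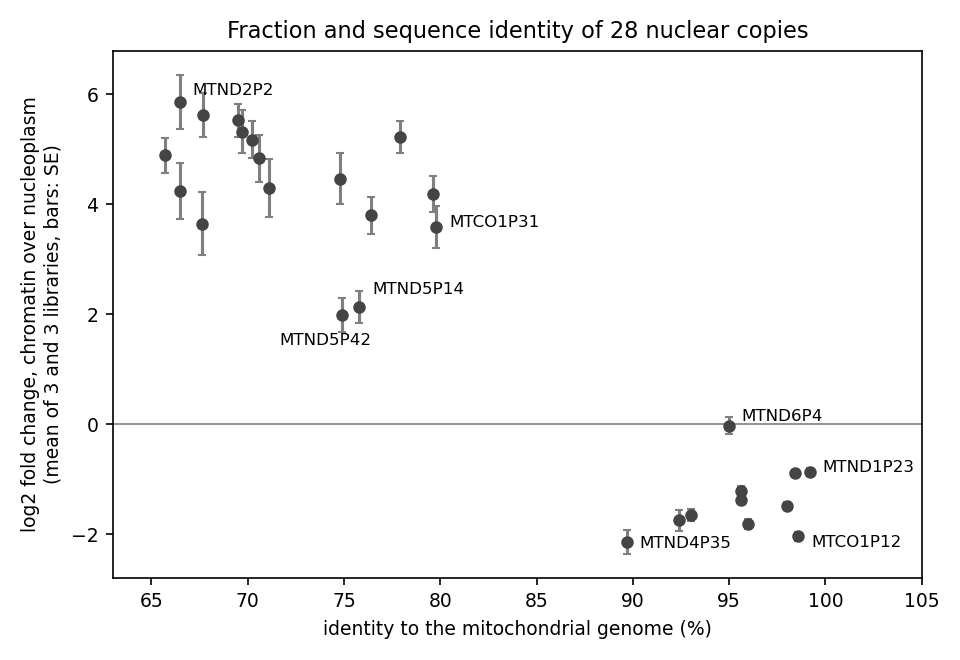
Log2 fold change of chromatin over nucleoplasm (points, with the standard error as bars) of the 28 copies against their identity to the mitochondrial genome in percent. The copies of 79.8% identity or less lie between 1.98 and 5.87, and those of 89.7% or more between -2.14 and -0.026.

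The plot of fold change against identity showed a step and no slope common to both classes. Over all 28 copies Pearson's r was -0.93 and Spearman's rho -0.81. Within the upper class they were 0.35 and 0.31 (11 copies, 5 places), and within the lower class -0.47 and -0.52 (17 copies, 7 places). These are descriptions, because copies of 1 place share their surroundings and all points share the 6 libraries. The minimum also shaped the plot, since 16 copies of the lower class had fewer than 10 normalized counts in every nucleoplasm library. They could enter only by being higher in chromatin. The step and the correlations over all 28 thus carry no support for a link between identity and fraction.

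The copies on chromosome 1, in the upper class, held most of the counts. MTCO1P12, a copy of the gene for subunit 1 of complex IV, had 10607, 8818 and 9867 normalized counts in the chromatin libraries and 43231, 38709.7 and 38287 in the nucleoplasm libraries. Every nucleoplasm library was far above every chromatin library. Its log2 fold change was -2.04 ± 0.079 (SE, n = 3 and 3, limma adjusted p = 3.89e-08), a level 4.10 times higher in nucleoplasm. MTCO1P12 alone held 60.0% to 63.5% of the counts of the 28 copies in chromatin and 77.1% to 77.3% in nucleoplasm.

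The other copies on chromosome 1 were lower and less unequal between the fractions. MTND2P28, a copy of a complex I subunit gene, had 1642, 1603 and 1662 normalized counts in chromatin and 3275, 2862 and 2950.2 in nucleoplasm (log2 fold change -0.89 ± 0.059, limma adjusted p = 9.53e-07). MTND1P23, a copy of part of another complex I gene, had 819.9, 748 and 828 in chromatin and 1606, 1415 and 1356 in nucleoplasm (log2 fold change -0.87 ± 0.075, limma adjusted p = 5.97e-06). MTCO2P12, a copy of the gene for subunit 2 of complex IV, had 1190.3, 1220.2 and 1374 in chromatin and 3709, 3424 and 3394 in nucleoplasm (log2 fold change -1.48 ± 0.067, limma adjusted p = 9.03e-08). All 4 copies of this place were lower in every chromatin library than in any nucleoplasm library. Per kilobase of span, MTCO1P12 was at 6328 normalized counts in chromatin and the other 3 between 1567 and 2147. The assembled locus that follows them (633535 to 634922 on chromosome 1) joins several further copies and has no name under the rule used here. Its log2 fold change was -2.09 ± 0.051 (limma adjusted p = 1.02e-08).

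The copies in and across from PCBD2 on chromosome 5 showed the strand of the mitochondrial genes. MTND4P12, MTND5P11 and MTCYBP18 lie on the minus strand, opposite to PCBD2, and MTND6P4 lies on the plus strand in an intron of PCBD2, as ND6 lies opposite to its neighbours in the organelle. MTND4P12 had 554, 492 and 543 normalized counts in chromatin and 1518, 1324 and 1304 in nucleoplasm (log2 fold change -1.38 ± 0.077, limma adjusted p = 3.22e-07). MTND5P11 had 189, 148 and 169 in chromatin and 601, 500.2 and 498 in nucleoplasm (-1.66 ± 0.11, limma adjusted p = 1.19e-06). Both are copies of complex I genes, and in both the fractions were well apart. MTCYBP18, a copy of the cytochrome b gene of complex III, had 46.6, 27.6 and 34.0 in chromatin and 128, 114 and 120.0 in nucleoplasm (-1.75 ± 0.19, limma adjusted p = 2.36e-05).

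MTND6P4 was the exception. It had 248, 175 and 233 normalized counts in chromatin and 248, 232 and 186 in nucleoplasm, and the fractions overlapped. Its log2 fold change was -0.026 ± 0.16 (limma adjusted p = 0.878), with means of 219 ± 38.3 and 222 ± 32.3 (SD, n = 3 and 3). Its sign depended on the scaling of the libraries and on single libraries. With equal ERCC totals it passed the test as higher in nucleoplasm (-1.34, limma adjusted p = 1.07e-09). With equal library totals it passed as higher in chromatin (0.44, limma adjusted p = 0.0196). Neither value was past 4-fold, and both lay close to the median of all tested genes in the same setting (-1.33 and 0.44). MT-ND6, its parent and the mitochondrial mRNA encoded on the other strand, was likewise the only mitochondrial mRNA locus that did not pass the test, at 0.11 ± 0.14 (limma adjusted p = 0.442).

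The 3 single copies of the upper class also followed nucleoplasm. MTCO1P40, on chromosome 17, had 290.0, 277 and 319 normalized counts in chromatin and 1164, 997 and 965 in nucleoplasm (log2 fold change -1.81 ± 0.089, limma adjusted p = 1.42e-07). MTCO2P2, which covers 225 bases in an intron of SMAD2, had 169, 179 and 169 in chromatin and 438, 379.6 and 382 in nucleoplasm (-1.21 ± 0.082, limma adjusted p = 1.13e-06). Of the 50-base stretches of MTCO2P2, 69.9% occur elsewhere in the nuclear genome as well, so its count is uncertain beyond the mitochondrial parent. MTND4P35, on chromosome 5, had 27.95, 15.6 and 26.3 in chromatin and 99.2, 112 and 98.8 in nucleoplasm. Its log2 fold change of -2.14 ± 0.22 (limma adjusted p = 1.75e-05) was the lowest among the 28 copies, and with MTCO1P12 it was 1 of the 2 past 4-fold toward nucleoplasm. Without chromatin replicate 2 neither was past 4-fold, at -1.89 for MTND4P35 and -1.97 for MTCO1P12, and without nucleoplasm replicate 1 MTCO1P12 was not, at -1.98.

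Each copy was set beside its own mitochondrial parent. In the 10 loci of the mitochondrial chromosome that hold the 13 mRNAs, 9 were higher in nucleoplasm and none was higher in chromatin, with log2 fold changes from -2.60 for the locus that joins MT-ATP8, MT-ATP6 and MT-CO3 to 0.11 for MT-ND6. Summed over the 10 loci, the libraries held 103513, 93076 and 105377 normalized counts in chromatin and 386894, 347747 and 338006 in nucleoplasm, a log2 ratio of the means of -1.83. The 2 rRNAs, MT-RNR1 and MT-RNR2, were at -1.55 ± 0.20 and -1.80 ± 0.15.

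In the upper class a copy and its parent had similar fold changes. The difference of copy minus parent ran from -0.59 to 0.21 on the log2 scale over the 11 copies, with an absolute value under 0.5 in 10 and a median absolute value of 0.19. MTCO1P12 was at -2.04 and MT-CO1 at -2.0. MTND1P23 was at -0.87 and MT-ND1 at -0.60, the smallest fall of any mitochondrial mRNA that passed the test. In 8 of the 11 pairs a two-sided exact permutation test of the log ratio gave p = 0.1. This is the smallest value that 3 against 3 libraries allow, so the test cannot decide whether such small differences are real. MTND4P35, at -0.59 against MT-ND4, was the farthest from its parent.

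**Figure D3:**
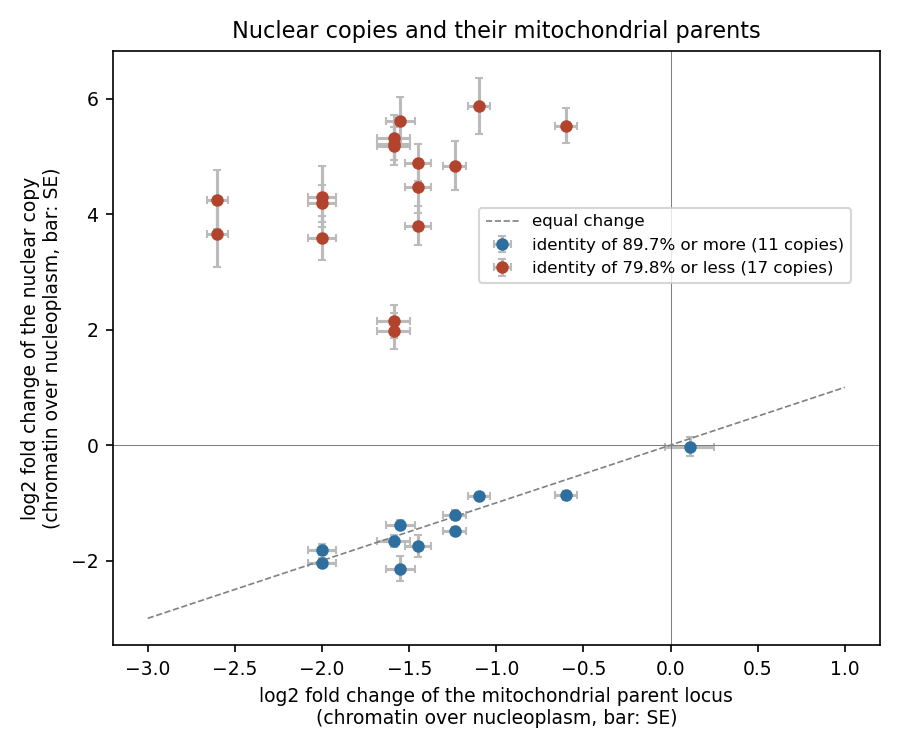
Log2 fold change of chromatin over nucleoplasm of each nuclear copy (vertical axis) against that of its mitochondrial parent locus (horizontal axis), with standard errors as bars and a dashed line where both changes are equal. The 11 copies of at least 89.7% identity lie along the line, and the 17 copies of at most 79.8% lie above it by 3.58 to 7.17.

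For the copies on chromosome 1, the ratio of copy to parent varied little from library to library. Per kilobase of span, MTCO1P12 stood at 38.2% ± 0.299 of MT-CO1 in the chromatin libraries and 39.2% ± 0.398 in those of nucleoplasm (SD, n = 3 and 3), MTND1P23 at 46.4% ± 0.724 and 55.8% ± 0.444 of MT-ND1, MTND2P28 at 31.6% ± 0.687 and 27.3% ± 0.560 of MT-ND2, and MTCO2P12 at 21.4% ± 0.299 and 25.3% ± 0.122 of MT-CO2. The copies off chromosome 1 stood lower, from 0.137% ± 0.0356 (MTND4P35) to 8.91% ± 0.780 (MTCO2P2) in chromatin. The ratio was least steady for MTND4P35, at 0.169%, 0.0982% and 0.143% of MT-ND4 in the chromatin libraries, and for MTCYBP18, at 0.889%, 0.593% and 0.626% of MT-CYB. MTND6P4 was at 3.77% ± 0.0523 of MT-ND6 in chromatin and 4.16% ± 0.200 in nucleoplasm.

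How much sequence is shared was computed beside these ratios, by exact match on the numbered chromosomes, X, Y and the mitochondrial genome of hg38. For MTCO1P12, 49.4% of its 50-base stretches occur exactly in the mitochondrial genome and 50.3% occur nowhere else in the sequence searched. For MTND1P23 the shared part is 62.2%, for MTND2P28 43.5%, for MTCO2P12 29.1%, for MTND6P4 18.0%, for MTCO2P2 14.2%, and for the other 5 copies of the upper class between 0.062% (MTND4P35, a single stretch) and 4.76% (MTND5P11). From the side of the parents, 50.6% of the stretches of MT-CO1 and 43.6% of those of MT-ND2 occur in the nuclear chromosomes searched, and none of those of MT-ND3. How the authors' aligner and counter divided reads that match both places is not given in the sources used here. Reads from shared stretches therefore cannot be assigned to a copy or to its parent from these files. In the 5 copies with the smallest shared parts, 83.7% (MTCO1P40) to 97.8% (MTND4P35) of the stretches occur nowhere else in the sequence searched. The part of shared reads in the values of the upper class was not tested.

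A fit of all genes against the summed mitochondrial mRNAs put the copies on 1 scale. The log2 difference of each copy from the summed mRNAs was tested with limma. Above the sum at an adjusted p-value under 0.05 were 23 of the 28 copies (83.6% of tested genes), below it 1 (6.64% of tested genes), and 4 did not pass. The 4 that did not pass were MTCO1P40 (difference 0.017 ± 0.096, limma adjusted p = 0.868), MTCYBP18 (0.081 ± 0.18, adjusted p = 0.67), MTND5P11 (0.17 ± 0.11, adjusted p = 0.155) and MTND4P35 (-0.31 ± 0.20, adjusted p = 0.16), all in the upper class. MTCO1P12 was the copy below the sum, by -0.21 ± 0.077 (limma adjusted p = 0.0205), and this call was lost when chromatin replicate 3, nucleoplasm replicate 2 or nucleoplasm replicate 3 was left out. MTND6P4, at 1.80 ± 0.13, stood farthest above the sum within the upper class. With the rRNAs added to the sum, the call of MTCO1P12 was lost as well, and that of MTCO2P12, which was above the mRNAs by 0.35 ± 0.088 (limma adjusted p = 0.00202). In the lower class, chosen through chromatin as said, the differences ran from 3.81 (MTND5P42) to 7.70 (MTND2P2).

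The 9 copies on chromosome X lie in an intron of LINC00630, a long noncoding RNA gene on the same strand, and spread over 22.2 kb. MTND1P32, the one nearest to the start of the gene, had 137, 157 and 108 normalized counts in chromatin and 2.63, 2.58 and 0.845 in nucleoplasm (log2 fold change 5.53 ± 0.30, limma adjusted p = 2.94e-07). MTND2P2 had 116, 136 and 104 in chromatin and 3.51, 0.861 and 0 in nucleoplasm, the highest log2 fold change of the 28 at 5.87 ± 0.49 (limma adjusted p = 4.33e-06). Both are copies of complex I genes, and every chromatin library was far above every nucleoplasm library. The numbers of reads behind the nucleoplasm values are small, 7 reads over 3 libraries for MTND1P32 and 5 for MTND2P2, so that the ratio of MTND2P2 was 81.5 with an exact 95% counting interval from 35.0 to 255.9.

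Further along the intron, MTND4P32 had 99.0, 101 and 59.3 normalized counts in chromatin and 1.76, 0.861 and 0 in nucleoplasm, which came from 3 reads and gave a ratio of 99.1 (counting interval 33.6 to 486) and a log2 fold change of 5.62 ± 0.40 (limma adjusted p = 1.62e-06). MTND5P26, the longest of the 28 at 3098 bases, had 146, 129.7 and 87.8 in chromatin and 4.39, 0.861 and 1.69 in nucleoplasm (5.32 ± 0.39, limma adjusted p = 1.96e-06). MTCYBP32 had 57.1, 88.9 and 46.1 in chromatin and 1.76, 0.861 and 0.845 in nucleoplasm (4.89 ± 0.32, limma adjusted p = 8.02e-07). Chromatin replicate 3 was the lowest of its fraction for each of these 3 copies, as for all 9 of this place.

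The copies of the complex IV and ATP synthase genes in this intron were lower in normalized counts, which are not corrected for span. MTCO1P19 had 30.3, 38.4 and 20.9 normalized counts in chromatin, MTCO2P19 had 38.4, 48.0 and 31.8, MTATP6P19 had 53.6, 45.6 and 25.2, and MTCO3P19 had 19.8, 21.6 and 17.6. In nucleoplasm they had 2 to 5 reads each over 3 libraries, which gave ratios between 17.5 (MTCO3P19, counting interval 6.28 to 65.1) and 70.0 (MTCO2P19, 18.4 to 572). Their log2 fold changes lay between 3.65 and 4.84. Per kilobase of span the 9 copies did not form a line along the intron: MTND1P32 stood at 143 normalized counts per kb in chromatin, MTND2P2 at 75.4, and the other 7 between 35.4 and 65.9. The libraries of MTND1P32 lay above those of the other 8. By this measure MTCO2P19 (65.9) and MTCO3P19 (61.2) stood above MTND4P32 (59.2), MTCYBP32 (59.1) and MTND5P26 (39.1). MTCO1P19 (35.4) and MTATP6P19 (35.6) stood below them.

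**Figure D4:**
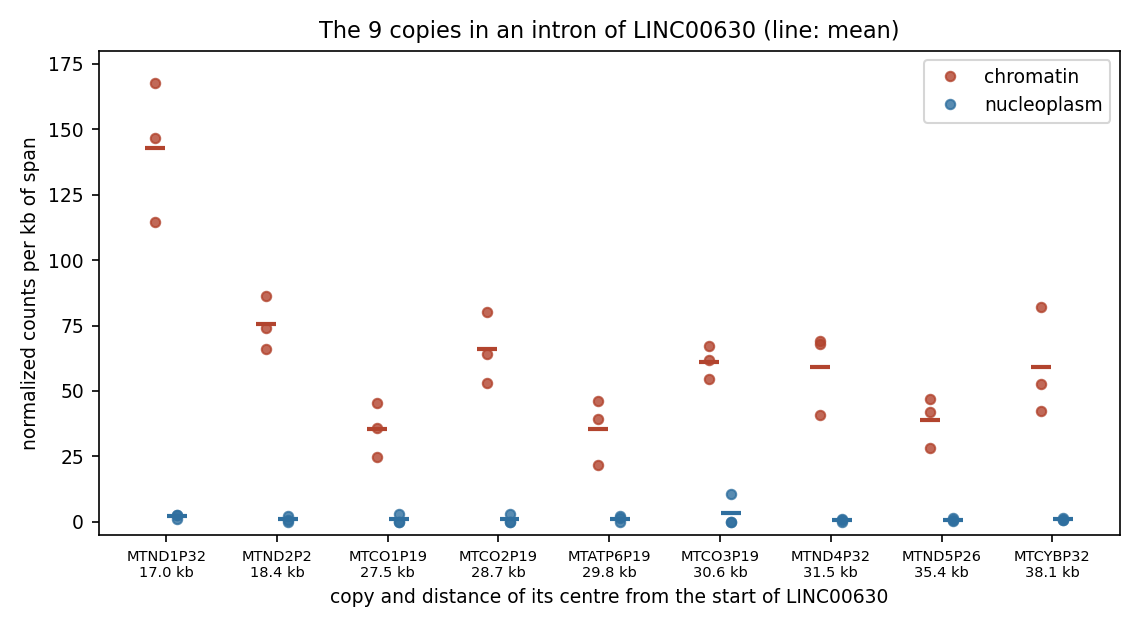
Normalized counts per kilobase of span in each library for the 9 copies in an intron of LINC00630, ordered by the distance of their centres from the start of the assembled LINC00630 locus (17 to 38.1 kb). Each point is 1 library and the short line is the mean of 3, with chromatin means from 35.4 to 143 and nucleoplasm means of at most 3.51.

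On chromosome 13, MTND5P2 and MTCYBP3 lie in an intron of DNAJC3, a gene for a chaperone regulator of the endoplasmic reticulum. MTND5P2 had 46.6, 40.8 and 43.9 normalized counts in chromatin and 0, 0.861 and 0 in nucleoplasm. With a single nucleoplasm read its ratio was 153 with a counting interval from 26.9 to 6082, and its log2 fold change was 5.18 ± 0.33 (limma adjusted p = 7.14e-07). MTCYBP3 had 40.8, 50.4 and 32.9 in chromatin and 0.878, 2.58 and 0 in nucleoplasm (4.47 ± 0.46, limma adjusted p = 1.77e-05). DNAJC3 itself was lower in chromatin, so copies and host moved in opposite directions.

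Of the remaining copies of the lower class, 3 had no read in any nucleoplasm library, so only a lower bound can be given, against 3 counts per library. MTND5P15, on chromosome 3 and 8273 bases downstream of TBL1XR1, had 34.9, 31.2 and 43.9 normalized counts in chromatin, at least 14.2-fold higher than in nucleoplasm. MTCO1P30 had 17.5, 19.2 and 15.4, at least 6.72-fold higher, and MTCYBP33 had 10.5, 14.4 and 14.3, at least 5.05-fold higher. All 3 passed the minimum only through chromatin, so these bounds are descriptions and carry no support for a direction. MTCO1P31, next to MTCO1P30 in an intron of the lncRNA gene ENSG00000286753, had 16.3, 12.01 and 13.2 in chromatin and a single read in nucleoplasm (ratio 49.1, counting interval 8.12 to 1956).

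MTND5P42 and MTND5P14 were the least unequal copies of the lower class. MTND5P42, on chromosome 10 and 11671 bases downstream of KIF20B, had 57.1, 46.8 and 30.7 normalized counts in chromatin and 14.0, 6.89 and 10.98 in nucleoplasm (log2 fold change 1.98 ± 0.31, limma adjusted p = 0.000286), and it was the copy of this class that stayed under the 4-fold cut. MTND5P14, in an intron of the kinase gene JAK2, had 11.6, 10.8 and 14.3 in chromatin and 1.76, 1.72 and 2.53 in nucleoplasm (2.14 ± 0.29, limma adjusted p = 0.000116). Every chromatin library was above every nucleoplasm library for both.

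Host genes on the same strand were compared next, since a copy in an intron is part of the unspliced transcript of its host. A host was found for 14 of the 17 copies of the lower class and for 2 of the 11 of the upper class, each copy lying in an intron. LINC00630 was higher in chromatin, with 7362, 8935 and 7054 normalized counts there against 1989, 1928 and 1903 in nucleoplasm (log2 fold change 2.0 ± 0.084, limma adjusted p = 6.15e-08). ENSG00000286753 was also higher in chromatin (1.53 ± 0.14, adjusted p = 7.1e-06), as were SMAD2, a signal transducer of the TGF-beta pathway (0.76 ± 0.049, adjusted p = 8.08e-07), and JAK2 (0.45 ± 0.064, adjusted p = 0.000167). DNAJC3 was higher in nucleoplasm (-1.40 ± 0.079, adjusted p = 3.43e-07), and PCBD2 did not pass the test (0.14 ± 0.069, adjusted p = 0.0857), all by limma.

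The 14 copies of the lower class with a host all had fewer than 10 normalized counts in every nucleoplasm library and passed the minimum through chromatin, so their shift against a host is a description, with no test. With a pseudocount of 1 their log2 fold changes exceeded those of the hosts by 1.66 (MTCO3P19 in LINC00630) to 6.58 (MTND5P2 in DNAJC3). These sizes depended on the pseudocount, because the copies had few or no nucleoplasm reads. With a pseudocount of 5 the range was 0.057 (MTCO3P19) to 4.61 (MTND5P2). MTND2P2 exceeded LINC00630 by 3.88 and by 2.30 with pseudocounts of 1 and 5, MTCO1P19 by 2.30 and 0.58, MTND5P14 exceeded JAK2 by 1.70 and 0.85, and MTCO1P31 exceeded ENSG00000286753 by 2.06 and 0.37. The counts of a host come from the transcripts assembled for it, whose exon lengths are not in the table, so levels per length were not compared. In the upper class, MTCO2P2 was below SMAD2 by -1.97 (exact permutation p = 0.1) and thus close to MT-CO2, from which it differed by 0.032, while MTND6P4 differed from PCBD2 by -0.17 (exact permutation p = 0.6) and from MT-ND6 by -0.14.

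Sums over all copies do not depend on the minimum. Over all 345 copies under 85% identity with an alignment, of which 84 were above 0 in at least 1 library, the sums were 1174, 1248 and 872 normalized counts in chromatin and 54.4, 31.9 and 36.3 in nucleoplasm, a ratio of the means of 26.9. A further 12 copies had no alignment and were left out of both classes. Without the 9 copies in LINC00630 the sums were 476, 482 and 371 against 38.6, 25.8 and 22.8, a ratio of 15.2. Over the 36 copies of at least 85% identity the sums were 15808, 13729 and 15245 in chromatin and 56054, 50103 and 49574 in nucleoplasm, which MTCO1P12 dominates. Each of these sums had non-overlapping fractions (two-sided exact permutation p = 0.1, the smallest possible).

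The copies below the minimum were also described alone. They rest on few reads, and no share over other genes of such low counts was computed. Of 67 such copies under 85% identity with any count, 64 had a higher mean in chromatin, and 46 had no read in nucleoplasm. Their sums were 241, 255.8 and 162 normalized counts in chromatin and 21.9, 13.8 and 8.45 in nucleoplasm. Of 13 such copies of at least 85% identity with any count, 3 had a higher mean in chromatin, and the sums of the 13 were 24.5, 24.0 and 19.8 against 36.9, 34.4 and 34.6. With no filter on low values, 81 copies below the minimum, of any identity, could be fitted with limma. At an adjusted p-value under 0.05, 25 of the 81 were higher in chromatin and 1 was higher in nucleoplasm. The share of all genes that passed in this unfiltered fit is not given here, so these counts carry no support for a direction. Just outside the minimum, MTCO2P22 had 5.82, 7.21 and 8.78 in chromatin and 10.5, 7.75 and 11.8 in nucleoplasm, and MTCO2P11 had 15.1, 10.8 and 8.78 against 0.878, 0.861 and 0. The copy just inside was MTCYBP33, whose chromatin libraries reached the minimum with 10.5 as the lowest.

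**Figure D5:**
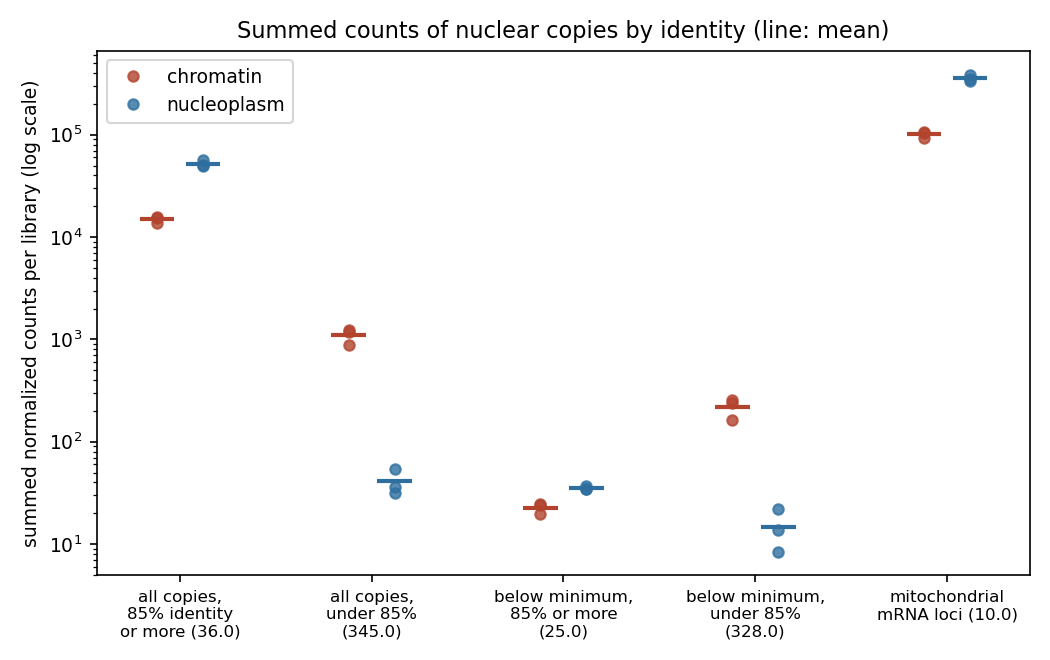
Summed normalized counts per library, on a log scale, of all copies and of the copies below the minimum, each by identity class, and of the 10 mitochondrial mRNA loci, with the number of loci in brackets. Points are the 3 libraries of each fraction and short lines their means. Chromatin lies above nucleoplasm for the copies under 85% identity (871.6 to 1248 against 31.9 to 54.4 over all of them) and below it for the other groups.

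Levels moved with the scaling of the libraries. When the libraries were set to the same ERCC total, the median log2 fold change of all tested genes moved from -0.019 to -1.33, and the calls past 4-fold changed from 5531 in chromatin and 2208 in nucleoplasm to 3107 and 8968. All 17 copies of the lower class were higher in chromatin (0.73 to 4.96). All 11 of the upper class were higher in nucleoplasm (-3.43 to -1.34). Calls past 4-fold were made for 15 and 10 of the 28 copies, beside 3107 and 8968 of all 26066 tested genes. For the 16 copies that passed the minimum only through chromatin, the direction was tied to the minimum and carries no support. With equal library totals, which moved the median of all genes to 0.44, the lower class lay between 2.42 and 6.19 and the upper class between -1.69 and 0.44, where MTND6P4 passed the test as higher in chromatin (limma adjusted p = 0.0196).

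Other pseudogenes of the table gave a frame for these values. Of 484 tested pseudogenes of ribosomal protein genes, 60 passed 4-fold toward chromatin and 340 toward nucleoplasm, and the median log2 fold change was -2.57. Of 2109 other processed pseudogenes, 351 and 661 did so, and the median was -1.38. The upper class, with a median of -1.48, had 2 of 11 called in nucleoplasm and 0 in chromatin. Over all tested genes, 8.47% were called in nucleoplasm and 21.2% in chromatin.

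The nuclear genes that maintain, transcribe and process mitochondrial DNA and RNA were looked up from a list of 23, of which 17 were tested. They encode factors such as TFAM, which packages mitochondrial DNA, and POLRMT, the RNA polymerase of the organelle. Of the 17, 14 were higher in nucleoplasm (45.2% of all tested genes were), 1 was higher in chromatin (44.2%) and 2 did not pass, none was past 4-fold, and the median log2 fold change was -0.76. TFAM was at -0.88 ± 0.052 (limma adjusted p = 4.43e-07), POLRMT at -0.92 ± 0.059 (adjusted p = 7.19e-07) and LRPPRC, which stabilizes mitochondrial mRNAs, at -0.65 ± 0.055 (adjusted p = 4.65e-06). TBRG4, an RNA-binding protein of mitochondria, was the gene higher in chromatin (0.49 ± 0.058, adjusted p = 5.12e-05), all by limma.

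In the long-read chromatin libraries every copy had an annotated transcript in the table, with its level in TPM, a share of all transcripts that is corrected for length. All 11 copies of the upper class were above 0 in both libraries, and their TPM summed to 2324 and 1852. MTCO2P12 was the highest with 1091 and 739.7 TPM, followed by MTCO1P12 with 912 and 724 TPM, while MT-CO2 stood at 319.8 and 139 and MT-CO1 at 270.04 and 184.8. Both copies were thus above their parents on the TPM scale, whereas in the short-read libraries both were below them per kilobase. In the lower class 5 of 17 were above 0 in both libraries, and the class summed to 15.3 and 17.5 TPM. MTND1P32 had 6.08 and 3.29, MTCYBP32 4.38 and 3.06, and MTND2P2 2.38 and 4.39 TPM, while MTND5P2, MTCYBP3, MTCYBP33, MTCO1P30, MTCO1P31, MTATP6P19 and MTCO3P19 were listed at 0 in both. These libraries have no nucleoplasm counterpart, TPM holds no depth, and the long reads were sequenced without strand, so neither a fraction nor the strand of a copy can be read from them.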

How the data were processed

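Gene expression was measured in HAP1 nuclei with 6 short-read and 2 long-read libraries, grouped by their titles, because another label field names chromatin for all 8. The authors aligned the 50-base single-end directional reads to hg38 and the ERCC sequences with HISAT2 2.1.0, assembled and merged transcripts with StringTie, and scaled gene counts by the size factors of DESeq2, which gave the deposited short-read signal per gene. Of these values 100% were whole multiples of 1 unit, called a read here (tolerance 0.01). The authors derived the counts from StringTie's abundance estimates, so such a unit need not be 1 sequenced read. The authors aligned long reads with minimap2, and TPM per transcript were deposited for them. Whether that table precedes or follows their assignment of strands is not stated.

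Loci took GENCODE release 44 names, by stable identifier or by the same-strand gene of largest span overlap (Jaccard index of at least 0.5). All 28 members, the lists and the tests were chosen with earlier results of these data known. Genes with at least 10 normalized counts in 3 libraries and a span over 200 bases (26066) were fitted with limma 3.58.1 (R 4.3.3) on log2(normalized count + 1), with Benjamini-Hochberg adjustment. Such fold changes understate the change of low genes. A call was an adjusted p-value under 0.05 with over 4-fold change. A second fit used the log2 sum of the mitochondrial mRNA loci as an offset. Single log ratios were compared by two-sided exact permutation (Python 3.11.15, scipy 1.17.1). A parent was the mitochondrial gene named in the symbol of the copy, at the locus of the table that overlaps it most, and a host was a coding or lncRNA gene on the same strand covering at least 50% of the copy. Identity came from blastn 2.17.0 (E-value of at most 1e-05). Exact 50-base stretches were searched on both strands of the numbered chromosomes, X, Y and the mitochondrial genome of hg38, without its other contigs. Intervals treat the recovered units as independent counts and cover counting error only. All 28 could be named, with full values for the 12 with the highest mean and the 5 highest and 5 lowest fold changes. Alternatives were other scalings, pseudocounts, filters, count models on recovered reads (DESeq2 1.42.0 and edgeR 4.0.16), the replicate number as a term, left-out libraries and other window lengths. The fits were tested on simulated data. The authors' comparisons were not used.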

Additional observations from a re-analysis of the deposited data

How the results depend on the processing

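The near-identical copies and their parents share exact 50-base stretches, the copies of the other class rest on few nucleoplasm reads, and p-values of 3 against 3 libraries cannot go under 0.1 by permutation. Both fractions came from 3 cultures, and the main fit had no replicate block. Correlations of same-numbered libraries between fractions were small (0.0871, 0.0533 and 0.0626), but every library correlated best with its own number. With the replicate block, calls were 5540 and 2218 over all genes, 16 and 2 over the copies, and 23 above and 1 below the summed mRNAs, with a median of 3.62.

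Calls in chromatin and nucleoplasm over all genes were 3107 and 8968 with equal ERCC totals, 6672 and 999 with equal library totals, and 8398 and 7006 at a 2-fold minimum. With genes averaging 50 or more normalized counts, 2957 were called in chromatin, and 3 copies. Leaving out 1 library gave 5410 to 5574 and 1998 to 2359 calls over all genes, 16 to 17 and 0 to 2 over the copies (0 without chromatin replicate 2, 1 without nucleoplasm replicate 1), medians of 3.37 to 3.84, and 23 above and 0 to 1 below the summed mRNAs. Of the 28 copies, those called in nucleoplasm were 10 with equal ERCC totals, 0 with equal library totals, 1 with a pseudocount of 5, 1 with DESeq2 and 8 at a 2-fold minimum. Over the 26066 tested genes the same settings gave 8968, 999, 1833, 1961 and 7006 calls.

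The median of the 28 copies was 2.84 with equal ERCC totals, 3.89 with equal library totals, 4.35 and 1.84 with pseudocounts of 0.5 and 5, 4.37 with edgeR and 4.57 with DESeq2. It reversed to -1.29 among genes averaging 50 or more, which removes most copies of the lower class. In splits added after seeing the data, the copies of at least 85% identity had a median of -1.48 and 0 called in chromatin, and those under 85% had 4.47 and 0 called in nucleoplasm. MTND6P4 reversed to 0.44 with equal library totals, 0.0011 with TMM, 0.0082 with edgeR, 0.072 with DESeq2, and 0.12, 0.06 and 0.0098 without chromatin replicate 2, nucleoplasm replicate 1 and nucleoplasm replicate 2 (range -0.15 to 0.12 over the left-out libraries). It passed the test at -1.34 with equal ERCC totals and, in the opposite direction, at 0.44 with equal library totals (limma adjusted p = 0.0196). The medians of all tested genes in the same settings were -1.33 and 0.44. The causes were not tested. With the rRNAs added to the summed mRNAs, 22 copies were above and 0 below, with the calls of MTCO2P12 and MTCO1P12 lost. In the long reads, 26 copies were above 0 in both libraries when any transcript covering the locus on either strand counted, which includes hosts. With windows of 75 bases, 6 copies shared one with the mitochondrial genome.

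In chromatin against nucleoplasm, no copy but MTND6P4 changed direction or its side of an adjusted p-value of 0.05 under the alternatives run. For the 16 copies that passed the minimum only through chromatin, this stability carries no support for a direction. Against the hosts, the differences of MTCO3P19 and MTCO1P19 fell from 1.66 and 2.30 to 0.057 and 0.58 with a pseudocount of 5.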
